A study of Mus musculus with 4 samples.

Results

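Long intergenic noncoding RNAs (lincRNAs) are transcripts that lie between protein-coding genes and are not annotated as encoding a protein. The lincRNAs described here are the rows of the deposited expression table whose biotype is lincRNA and whose mean over the 4 libraries was at least 1 FPKM (fragments per unit of gene length and of library size). The widely measured Malat1, Neat1, Gas5 and Zfas1 and all names that start with Snhg were left out by name, which removed 6 rows above that level. This left 99 lincRNAs of 5559 lincRNA rows and of 54532 genes in all. Of the other lincRNA rows, 5453 were under the threshold, and 4274 of the 5559 had no read in any library. The lincRNAs were thus chosen by their mean FPKM, and their levels are given as a description. The 3 just inside the threshold were Gm47882, Gm26617 and Wincr1, with means of 1.033, 1.038 and 1.045 FPKM, and the 3 rows just outside were Gm44837, Gm49539 and Gm48604, with 0.995, 0.972 and 0.968 FPKM.

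As background, lincRNAs are mostly made by RNA polymerase II, capped and often spliced, and are as a class made at lower levels and in fewer cell types than messenger RNAs. Some act in trans by binding proteins or microRNAs. For others the act of transcription, or an enhancer in the locus, controls a neighbouring gene. Many start head to head with a protein-coding gene, from the opposite strand of the same promoter region. In T cells and myeloid cells lincRNAs are known to mark subsets and activation states.

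RNA was sequenced from CD4+ T cells that, according to the labels, had infiltrated tumours of the mouse melanoma line B16 and were sorted by flow cytometry. The 2 groups were WT and Piezo1KO, with 2 libraries each. Piezo1 is a cation channel that opens when a membrane is stretched, and the series asks how it acts when CD4+ cells become Th9 cells, which make interleukin 9. The labels give neither the age or strain of the mice, nor the driver or extent of the Piezo1 deletion, nor whether libraries of 1 group came from separate animals. The spread behind each p-value thus combines that of 2 libraries a group with a spread pooled across genes, and may be technical. Libraries are numbered by their titles.

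Several facts of the libraries touch every value below. Reads assigned to genes numbered 13789266 to 15892797 per library. The mitochondrial share of them was 3.86% and 2.99% in the WT libraries, and 20.1% and 48.3% in the Piezo1KO libraries, in the order of their numbers as in all lists below. Of 15 T cell markers, 3 reached a mean of 1 FPKM. These were Lck, Trac and Trbc2. Lck had 74 and 47 reads in WT, and 126 and 45 in Piezo1KO. Trac had 0 and 6 reads in WT against 32 and 11 in Piezo1KO, Trbc2 had 0 and 2 against 27 and 9, and Cd3e had 1 and 2 against 27 and 0. Over all 15 markers there were 147 and 116 reads in WT, and 516 and 142 in Piezo1KO. Most markers of the labelled cell type were thus low, with the most reads in Piezo1KO 1. All 10 melanocyte markers were present, with sums of 6784 and 6809 FPKM in WT and of 7465 and 7342 FPKM in Piezo1KO. Piezo1 had 27.8 and 27.6 FPKM in WT, and 18.7 and 7.64 in Piezo1KO (log2 fold change -1.14, limma adjusted p = 0.166), so the libraries labelled Piezo1KO still held reads of the targeted gene. In bulk RNA, fewer cells of a type and less RNA per cell cannot be told apart.

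The sequences that matter most here are those that tie a lincRNA to a coding gene. A first set is the stretch between the starts of a lincRNA and of a protein-coding gene read from the other strand. Each such stretch lies before the annotated starts of both genes, and whether it drives both was not tested. All sequences are from RefSeq promoter windows of build GRCm38.p6 and are printed 5′ to 3′ on the strand of the lincRNA. Of the pairs with starts 50 to 250 bases apart, 5 were covered in full.
4930558J18Rik, chr1:57377545-57377619, minus strand, facing 1700066M21Rik: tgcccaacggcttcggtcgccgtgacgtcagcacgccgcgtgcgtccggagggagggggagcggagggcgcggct
2010320M18Rik, chr8:70776714-70776814, plus strand, facing Pik3r2: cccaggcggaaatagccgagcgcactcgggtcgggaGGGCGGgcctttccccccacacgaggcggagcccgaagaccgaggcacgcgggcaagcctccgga
Gm7160, chr1:105990283-105990405, minus strand, facing Zcchc2: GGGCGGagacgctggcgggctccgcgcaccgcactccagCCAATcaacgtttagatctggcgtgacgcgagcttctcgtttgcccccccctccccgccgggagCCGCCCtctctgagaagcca
C030037D09Rik, chr11:88718514-88718644, plus strand, facing Msi2: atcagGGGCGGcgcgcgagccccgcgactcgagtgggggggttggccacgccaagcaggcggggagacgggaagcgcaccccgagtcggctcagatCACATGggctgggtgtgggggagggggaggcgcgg
Gm17586, chr11:120633601-120633767, plus strand, facing Mafg: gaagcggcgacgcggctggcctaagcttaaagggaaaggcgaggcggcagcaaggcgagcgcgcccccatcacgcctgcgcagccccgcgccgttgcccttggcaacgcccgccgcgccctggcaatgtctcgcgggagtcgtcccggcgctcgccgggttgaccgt

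Capitals mark matches, on either strand, to the GC box GGGCGG, the CCAAT box CCAAT, the ETS core CCGGAAG, the E-box CACGTG, the TATA box TATAAA, the M-box core CATGTG and the AP-1 site TGACTCA. These motifs were chosen because they are common promoter elements or bind factors of pigment and immune cells, and overlapping matches count separately. The 5 stretches were 69.1% to 76.0% G or C and held 13 to 26 CG dinucleotides each. A GC box was found in 3 of them and a TATA box in 0.

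A second set shows 3 lincRNAs that start away from any coding start and whose expression is described below. The windows run from 250 bases before to 50 bases after the start.
1700020I14Rik, chr2:119594046-119594345, plus strand: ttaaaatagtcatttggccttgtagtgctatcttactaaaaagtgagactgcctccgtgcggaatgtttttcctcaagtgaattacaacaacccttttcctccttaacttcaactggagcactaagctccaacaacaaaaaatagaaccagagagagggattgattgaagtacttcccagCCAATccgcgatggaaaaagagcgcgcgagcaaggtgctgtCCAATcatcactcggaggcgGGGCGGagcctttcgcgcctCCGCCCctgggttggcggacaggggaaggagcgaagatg
Lockd, chr6:134928842-134929141, plus strand: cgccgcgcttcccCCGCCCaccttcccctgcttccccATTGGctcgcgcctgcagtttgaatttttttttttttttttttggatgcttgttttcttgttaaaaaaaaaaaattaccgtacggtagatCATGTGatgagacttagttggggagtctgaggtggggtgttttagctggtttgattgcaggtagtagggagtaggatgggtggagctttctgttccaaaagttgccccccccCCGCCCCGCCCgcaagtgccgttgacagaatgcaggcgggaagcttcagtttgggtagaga
1810044D09Rik, chr6:91440737-91441036, plus strand: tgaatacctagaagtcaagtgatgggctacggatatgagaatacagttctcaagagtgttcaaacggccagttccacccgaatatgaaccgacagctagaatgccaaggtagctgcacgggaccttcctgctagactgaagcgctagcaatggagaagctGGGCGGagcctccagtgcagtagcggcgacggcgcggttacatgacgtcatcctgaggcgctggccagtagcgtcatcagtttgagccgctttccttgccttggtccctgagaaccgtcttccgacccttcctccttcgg

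The windows of these 3 held 15, 13 and 19 CG dinucleotides. Promoter windows within 2 kb of the deposited start were found for 51 of the 99 lincRNAs. A GC box was in 45.1% of them, against 35.9% of 27025 promoter windows of all genes and 68.0% of 7948 windows of tested protein-coding genes. The TATA box was in 19.6%, against 14.2% and 6.35%, and the M-box core in 27.5%, against 14.1% and 7.98%. The AP-1 site was in 9.80%, against 5.17% and 3.16%, and the ETS core in 17.6%, against 9.12% and 20.6%. The CCAAT box was in 41.2%, against 37.9% and 39.1%, and the E-box in 7.84%, against 7.24% and 10.8%. The 12 lincRNAs with a window that start head to head with a coding gene had a median of 37.5 CG dinucleotides and 70.3% G or C. The other 39 had 6 CG dinucleotides and 50.7%. All 10 windows with a TATA box belonged to those 39. The matches are letters found in these windows, and no binding was measured.

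The last sequence shows why 1 value below is uncertain. The most abundant lincRNA, Gm10076, is a single-exon gene with RefSeq class pseudogene, and 99.7% of its transcript matched Rpl41, which encodes a small protein of the large ribosomal subunit. Over the 75 bases of Rpl41 coding sequence before the stop codon, Gm10076 differed at 0 positions. This stretch runs from base 42 to base 116 of the Gm10076 transcript, with the start codon in capitals.
Gm10076: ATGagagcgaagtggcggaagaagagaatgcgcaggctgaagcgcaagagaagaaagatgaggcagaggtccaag

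The 99 lincRNAs were a small and uneven part of the RNA. Their share of assigned reads in the WT libraries was 0.141% (exact 95% binomial interval from 0.139% up to 0.143%) and 0.144% (from 0.142% up to 0.146%). The share in the Piezo1KO libraries was 0.0910% (from 0.0895% up to 0.0925%) and 0.0713% (from 0.0699% up to 0.0727%). As a share of reads outside mitochondrial genes the values were 0.147%, 0.148%, 0.114% and 0.138%, and the gap between groups was smaller on this denominator. Median reads per lincRNA were 60 and 67 in WT, and 48 and 32 in Piezo1KO. The intervals cover counting error only.

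Mean levels fell off steeply. Of the 99, 11 had a mean of at least 10 FPKM, 3 lay from 5 to 10, 36 from 2 to 5 and 49 under 2, and the highest was 47.8. The 10 most abundant held 65.7% to 69.9% of the lincRNA reads of a library. At least 1 FPKM was reached by 83 of the lincRNAs in each WT library, and by 79 and 87 in Piezo1KO 1 and Piezo1KO 2. Of lincRNA rows 1.89% reached the threshold, against 45.1% of protein-coding rows and 2.62% of antisense rows. Over the 99, log2(FPKM + 1) correlated at r = 0.959 between the WT libraries, at 0.798 between the Piezo1KO libraries and at 0.673 to 0.885 between groups, as a description across genes.

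**Figure D1:**
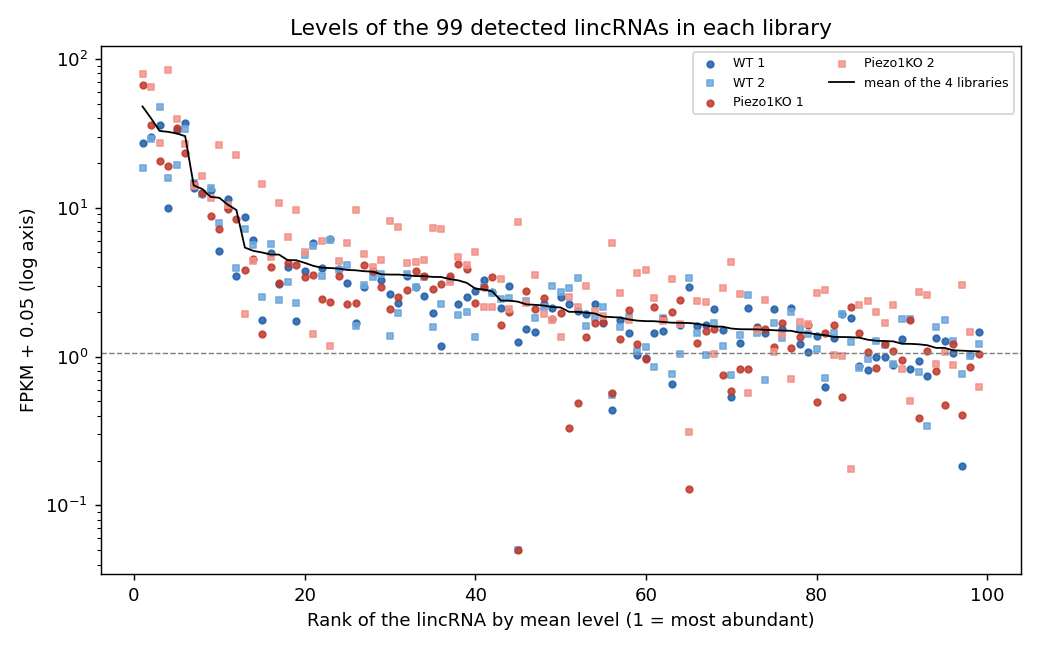
FPKM + 0.05 on a log axis for each of the 99 lincRNAs, ranked by mean level, with 1 point per library and the mean as a line; the dashed line marks 1 FPKM. The mean drops from 47.8 FPKM at the first rank to under 2 for 49 lincRNAs, and Piezo1KO 2 gives most of the highest points.

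The lincRNAs shared features that the rule did not use. Their median gene length was 1603 bases (168 to 8306), against 1029 in the lincRNA rows under the threshold and 4368 in tested protein-coding genes. After merging transcripts, 12 had 1 exon, 31 had 2 and 56 had at least 3, with the most, 21, in Pvt1. Names were of the predicted-gene type (Gm) in 53, of the Riken clone type (Rik) in 26 and other in 20. Chromosome 6 held 14 of them, more than any other chromosome, followed by chromosome 2 with 9 and chromosome 5 with 8. The spread of all lincRNA rows over the chromosomes was not compared. Although classed as intergenic, 15 overlapped the body of a protein-coding gene, 34 others lay within 5 kb of one, and 16 lay over 50 kb from any. RefSeq lists 60 of the 99 as lncRNA, 7 as protein-coding, 1 as a pseudogene and 1 as a transcribed pseudogene, and 30 matched no entry.

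The 7 that RefSeq calls protein-coding include members of the top ranks. 1810058I24Rik, which encodes a short mitochondrial membrane peptide, had 29.6 and 28.8 FPKM in WT, and 35.8 and 64.8 in Piezo1KO. Both Piezo1KO values lay above both WT values, and Piezo1KO 2 stood far above the other 3. Tmem250-ps had 12.3, 12.2, 12.5 and 16.2 FPKM in the same order, so Piezo1KO 1 sat at the WT level. Neither passed the test (log2 fold changes 0.71 and 0.20, limma adjusted p of 0.203 and 0.437). Zfp469, a zinc finger gene linked in humans to corneal thickness, is described below, and the other 4 were Gm829, Gm39469, Gm6712 and Gm38399.

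Among the abundant noncoding members, 2900097C17Rik is known as Norad, an RNA that binds Pumilio proteins and guards chromosome number. It had 36.9 and 33.9 FPKM in WT, and 23.4 and 26.5 in Piezo1KO. Means were 35.4 ± 2.12 and 24.9 ± 2.23 (SD, n = 2 each), and the groups did not overlap (log2 fold change -0.49, SE 0.15, limma adjusted p = 0.145). 1700020I14Rik, ninth by mean level, is known as Cyrano, which leads to the decay of a microRNA. It had 13.2 and 13.5 FPKM in WT, and 8.77 and 11.6 in Piezo1KO, both lower, without passing (log2 fold change -0.37, adjusted p = 0.220).

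AU020206 was the steadiest of the 10 most abundant, with 13.5 and 14.5 FPKM in WT and 14.3 and 13.9 in Piezo1KO. Gm26917, with 33.0 and 19.3 FPKM in WT and 34.2 and 39.4 in Piezo1KO, spread widely within WT. Its annotated place, chromosome 17 from 39843013 to 39846341 on GRCm38, ends 12 bases before a RefSeq pseudogene of ribosomal RNA, Rn18s-rs5. Bvht, known as Braveheart for its part in the cardiac lineage, had 5.08 and 7.80 FPKM in WT, and 7.18 and 26.3 in Piezo1KO. Its high mean therefore rests on 1 library, Piezo1KO 2, while Piezo1KO 1 lay within the WT range.

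The comparison asks which lincRNAs differ between the libraries labelled Piezo1KO and those labelled WT. As given above, T cell markers were low and melanocyte markers high in all of them. Only Gm17275 passed, and it fell. In WT it had 2.88 and 3.30 FPKM, based on 145 and 171 reads, and in Piezo1KO 0.0798 and 0.262 FPKM, based on 3 and 5 reads. The means were 3.09 ± 0.291 and 0.171 ± 0.129 (SD, n = 2 each), a ratio of 18.1. Over the summed reads, 316 and 8, the ratio of rates was 21.9 (exact 95% interval 10.99 to 51.2, counting error only). On the scale of log2(FPKM + 1) it fell by 1.81 (SE 0.19, limma adjusted p = 0.0438). Both Piezo1KO values lay far below both WT values.

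Gm17275 (ENSMUSG00000097347) is a gene of 2 exons on chromosome 1, 180802568 to 180809483, plus strand, on GRCm38. Its body overlaps H3f3a, which encodes the histone variant H3.3 on the opposite strand, and 25.02% of its exon bases are shared with H3f3a exons. H3f3a itself had 48.9 and 40.8 FPKM in WT, and 43.1 and 41.0 in Piezo1KO (log2 fold change -0.09, adjusted p = 0.718). The library protocol gives no strand setting, so reads of the shared part cannot be told apart. The call was lost with a pseudocount of 0.1 (adjusted p = 0.0753), in limma voom on whole reads (0.0554), without a filter (0.171) and with the length trend removed (0.0510). It was also lost without WT 1 (0.298) or WT 2 (0.379), where 0 of all genes passed, against 723 and 616 genes at an unadjusted p under 0.05. Scaling to all assigned reads gave an adjusted p of 7.48e-07, and its log2 fold change stayed between -1.69 and -4.39 in every alternative that tested it.

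Over all 11085 tested genes, 0.731% passed as higher and 0.37% as lower (limma, adjusted p). Of the 99 lincRNAs 0 passed as higher and 1 as lower. At an unadjusted limma p under 0.05 there were 20 of 99, 11 higher and 9 lower. Over all tested genes there were 3170 of 11085 (28.6%), 1650 higher and 1520 lower. The groups did not overlap for 33 lincRNAs that were higher and 21 that were lower, against 33.9% and 35.6% of all tested genes. The share without overlap was near the background for higher lincRNAs and under it for lower ones. The share at an unadjusted p under 0.05 was under the background in both directions. The counts of 0 and 1 that passed are too small to set apart from it. By the filter, 12 lincRNAs had a WT mean under 1 FPKM and 9, Gm17275 among them, had a Piezo1KO mean under 1 FPKM, so these 21 were bound to differ in 1 direction.

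The count depended on the scaling and on single libraries. With FPKM scaled to all assigned reads, 11 lincRNAs passed as lower and 0 as higher, against 12.9% and 2.5% of all tested genes, and the median log2 fold change of all genes moved to -0.67. The 11 were Gm17275, Gm28901, Gm38399, Zfp469, Gm42047, Gm14230, AL805899.1, Gm8066, Gm10832, 2900097C17Rik and 9330102E08Rik. Without Piezo1KO 1, 39 passed as higher and 11 as lower, against 27.5% and 25.4% of all tested genes. Without Piezo1KO 2, 4 passed as higher and 10 as lower, against 9.71% and 4.54%. The 4 were Gm44386, Gm10076, Gm42788 and Gm11110, and all 4 were also among the 39. In these 2 fits the lone Piezo1KO library is assumed to vary like the WT libraries. With the title's sample number as a replicate block, Gm10076 passed as higher and Gm17275, Gm28901 and Gm38399 as lower, against 1.73% and 0.65% of all tested genes.

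The lincRNA with the largest positive difference among those whose groups did not overlap was Gm44386, a short gene of 429 bases on chromosome 6, 8219 bases from Pcbp1. It had 3.43 and 3.89 FPKM in WT, and 8.38 and 22.7 in Piezo1KO. Means were 3.66 ± 0.330 and 15.5 ± 10.1 (SD, n = 2 each), with a log2 fold change of 1.68 (SE 0.46, limma adjusted p = 0.138). The difference was larger than the spread within WT, and the Piezo1KO libraries differed widely from each other.

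Gm10076 followed, with 27.2 and 18.3 FPKM in WT, and 66.4 and 79.2 in Piezo1KO, a log2 fold change of 1.66 (SE 0.24, adjusted p = 0.0763). Rpl41, whose coding sequence it carries, had 282 and 280 FPKM in WT, and 547 and 1982 in Piezo1KO (log2 fold change 1.89, SE 0.66, adjusted p = 0.160). Gm10076 was far below Rpl41 in every library, and reads could have been split between them in the counting.

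Epb41l4aos, on the opposite strand 341 bases from Epb41l4a and 212314 bases from its start, had 9.91 and 15.9 FPKM in WT, and 19.1 and 84.1 in Piezo1KO (log2 fold change 1.61, SE 0.73, adjusted p = 0.214). Epb41l4a had 3.76 and 3.84 FPKM in WT, and 3.91 and 5.09 in Piezo1KO (log2 fold change 0.19, adjusted p = 0.447). 1810044D09Rik, whose promoter window is printed above, had 1.67 and 2.23 FPKM in WT, and 4.05 and 9.61 in Piezo1KO (log2 fold change 1.32, SE 0.39, adjusted p = 0.142). Lockd had 1.62 and 1.56 FPKM in WT, and 2.25 and 9.54 in Piezo1KO (log2 fold change 1.18, SE 0.58, adjusted p = 0.237). Lockd lies 3579 bases from Cdkn1b, the inhibitor of cyclin-dependent kinases whose transcription the Lockd locus is known to enhance. Cdkn1b had 21.1, 22.4, 21.9 and 24.5 FPKM, with overlapping groups.

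Gm36738, 1628 bases from Rac2, a GTPase gene of blood cells, had 0.386 and 0.499 FPKM in WT, and 0.516 and 5.76 in Piezo1KO. Only Piezo1KO 2 stood out, with 17 reads against 3 or 4 in each of the others (log2 fold change 1.15, adjusted p = 0.324). Rac2 had 0.981 and 0.744 FPKM in WT, and 9.003 and 2.41 in Piezo1KO, so the higher library was Piezo1KO 1 for the coding gene and Piezo1KO 2 for the lincRNA.

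Gm11110 and Gm42788, named because they passed without Piezo1KO 2, gave more even values. Gm11110 had 2.20 and 1.86 FPKM in WT, and 4.14 and 4.601 in Piezo1KO, the second-smallest p among higher lincRNAs (log2 fold change 0.83, SE 0.15, adjusted p = 0.0996). Gm42788, which overlaps the body of Hmgb1, had 0.608 and 0.708 FPKM in WT, and 1.95 and 3.28 in Piezo1KO (log2 fold change 1.10, SE 0.24, adjusted p = 0.122). In both, on the scale of log2(FPKM + 1), the gap between groups exceeded the spread within each group. Gm42788 had a WT mean of 0.658 FPKM, so it is among the lincRNAs that the filter bound to be higher.

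On the lower side, Gm28901 came after Gm17275. It had 6.10 and 6.01 FPKM in WT, and 2.29 and 1.13 in Piezo1KO, from 57, 58, 16 and 4 reads (log2 fold change -1.42, SE 0.25, limma adjusted p = 0.0955). Its transcript is the reverse complement of part of a copy of Hnrnpf, which encodes an RNA-binding protein of splicing. Over 410 bases it matched the Hnrnpf coding sequence at 99.5% identity with 2 mismatches, and 85.6% of its exon bases are shared with the pseudogene Gm6430. Hnrnpf had 130, 128, 118 and 121 FPKM, with a log2 fold change of -0.11.

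Gm38399 lies in the body of Nav1, which encodes a neuronal microtubule-binding protein, on the same strand, and shares 8.15% of its exon bases with it. By its synonyms RefSeq places Gm38399 under Nav1 itself, so the 2 rows may not be separate genes. It had 8.63 and 7.11 FPKM in WT, and 3.75 and 1.87 in Piezo1KO (log2 fold change -1.26, SE 0.28, adjusted p = 0.123). Nav1 had 9.12 and 9.72 FPKM in WT, and 5.61 and 4.002 in Piezo1KO (log2 fold change -0.86, adjusted p = 0.118). Both were lower in both Piezo1KO libraries, and the lowest value of each was in Piezo1KO 2.

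Gm14230 starts 115 bases from Tgif2, a homeobox repressor of TGF-beta responses, on the opposite strand. It had 5.76 and 5.44 FPKM in WT, and 3.50 and 1.38 in Piezo1KO (log2 fold change -1.01, SE 0.33, adjusted p = 0.152). Tgif2 had 4.13 and 3.82 FPKM in WT, and 2.25 and 1.57 in Piezo1KO (log2 fold change -0.78, adjusted p = 0.124). The pair was lower in both libraries of the group, and neither gene passed.

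**Figure D2:**
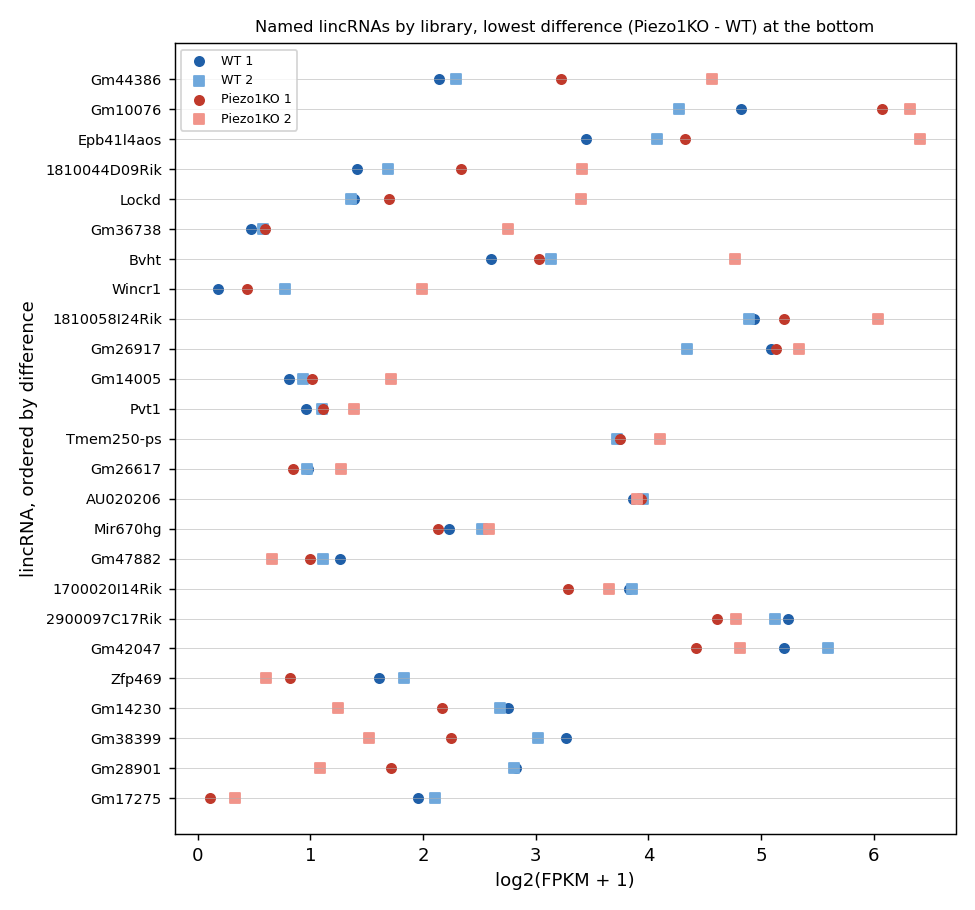
log2(FPKM + 1) of the 25 named lincRNAs, 1 point per library (blue WT, red Piezo1KO), ordered by difference. Gm17275 at the bottom is the 1 that passed; at the top, Piezo1KO 2 is to the right of Piezo1KO 1 in Gm44386, Gm10076 and Epb41l4aos.

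By known role, the lists hold genes of several biotypes, of which those that are lincRNA rows could be members. Genes were matched by their deposited names, so a gene listed under another name is not counted. Found by name were 27 of 34 growth regulators, 23 of 23 immune genes and 13 of 18 microRNA hosts. Of the imprinted and X-linked lists, 11 of 13 and 5 of 6 were found. Among 34 listed regulators of growth and genome stability, 12 were lincRNA rows and 5 were members, and 0 of the 5 passed: 2900097C17Rik, Pvt1, Lockd, Epb41l4aos and Bvht. Pvt1, the neighbour of the oncogene Myc, had 0.942 and 1.15 FPKM in WT, and 1.16 and 1.62 in Piezo1KO (log2 fold change 0.22, adjusted p = 0.466). Myc had 24.6, 25.1, 24.6 and 18.9 FPKM, lowest where Pvt1 was highest.

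Among 23 listed immune noncoding genes, 14 were lincRNA rows, 3 were members and 0 of the 3 passed: AU020206, Pvt1 and Gm14005. Gm14005 is known as Morrbid, which represses the cell death gene Bcl2l11 in short-lived myeloid cells. It had 0.760 and 0.918 FPKM in WT, and 1.02 and 2.29 in Piezo1KO (log2 fold change 0.49, limma adjusted p = 0.302). With a WT mean of 0.839 FPKM, it was bound to be higher by the filter. Bcl2l11 had 1.11, 1.09, 1.66 and 1.15 FPKM, again with its highest value in another library than Morrbid. AW112010, an interferon-induced transcript of T cells and macrophages, was under the threshold, with 0.132 and 0 FPKM in WT and 1.67 and 1.21 in Piezo1KO.

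Among 18 listed microRNA hosts, 8 were lincRNA rows and the 1 member was Mir670hg, with 3.68 and 4.76 FPKM in WT and 3.38 and 5.01 in Piezo1KO (log2 fold change -0.02, adjusted p = 0.961). Mir17hg, host of a growth-promoting microRNA cluster, was under the threshold with 0.602, 1.36, 0.0384 and 0.189 FPKM. Of 13 listed genes of imprinted loci and 6 of the X inactivation centre or X-linked, 3 each were lincRNA rows and 0 were members. H19 and Meg3 had at most 0.165 FPKM in any library, and Xist at most 0.00548.

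The median log2 fold change of the 99 lincRNAs was 0.115, with 65 above 0 and 34 below. The same median was -0.006 over all tested genes, -0.029 over protein-coding genes and 0.104 over 88 antisense and bidirectional-promoter RNAs. Against the WT mean, the median difference was 0.023 in Piezo1KO 1 and 0.358 in Piezo1KO 2. Piezo1KO 2 was above Piezo1KO 1 in 72 of 99 lincRNAs, against 5265 of 11085 tested genes. Leaving out Piezo1KO 1 thus moved the median to 0.358, and leaving out Piezo1KO 2 moved it to 0.023.

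The sign of that median depended on scaling and on length. Scaling to the assigned reads gave -0.39, which is 0.27 above the median of all genes under that scaling. Scaled to reads outside mitochondrial genes it was -0.03, or 0.17 above a median of all genes of -0.20. With the trend on gene length removed it was -0.18, against -0.003 for all genes. In voom the difference from all genes was 0.078.

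Short lincRNAs stood higher in Piezo1KO 2. The 18 lincRNAs of up to 500 bases had a median log2 fold change of 0.87, with a median difference from WT of 0.005 in Piezo1KO 1 and of 1.42 in Piezo1KO 2. Of these 18, 4 had a WT mean under 1 FPKM and 0 had a Piezo1KO mean under 1 FPKM. The filter thus bound those 4 to be higher, and both medians include them. The median log2 fold change was 0.32 in the 16 of 501 to 1000 bases and 0.14 in the 29 of 1001 to 2000. It was -0.005 in the 23 of 2001 to 4000 and 0.016 in the 13 above 4000 bases. Protein-coding genes had medians of 1.18, 1.00, 0.53, 0.13 and -0.21 in the same classes, from 35, 242, 1101, 3075 and 5487 genes.

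Across the 99 lincRNAs the log2 fold change correlated with log2 length at r = -0.365, against -0.551 over protein-coding genes. In Piezo1KO 1 alone the value was -0.115 over the lincRNAs and -0.437 over protein-coding genes, and in Piezo1KO 2 it was -0.445 and -0.576. These are descriptions, since genes of 1 library share its depth and fragment lengths. Of the 6 named lincRNAs under 500 bases, Gm44386, Gm10076, Epb41l4aos, 1810044D09Rik and Gm36738 were highest in Piezo1KO 2, and Gm28901 was lowest there. Lockd, at 5788 bases, was also highest there. All of these are among the lincRNAs named for a large difference without overlap. A Piezo1KO library was thus bound to hold the extreme value of each. Gm36738, with a WT mean of 0.443 FPKM, was also bound to be higher by the filter. Of the short ones, Bc1, the small cytoplasmic RNA of neurons, is given after its values were seen: it had 4 reads in WT 1, 0 in WT 2 and Piezo1KO 1, and 10 in Piezo1KO 2. The part of length, of the mitochondrial share and of RNA quality in these differences was not tested.

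**Figure D3:**
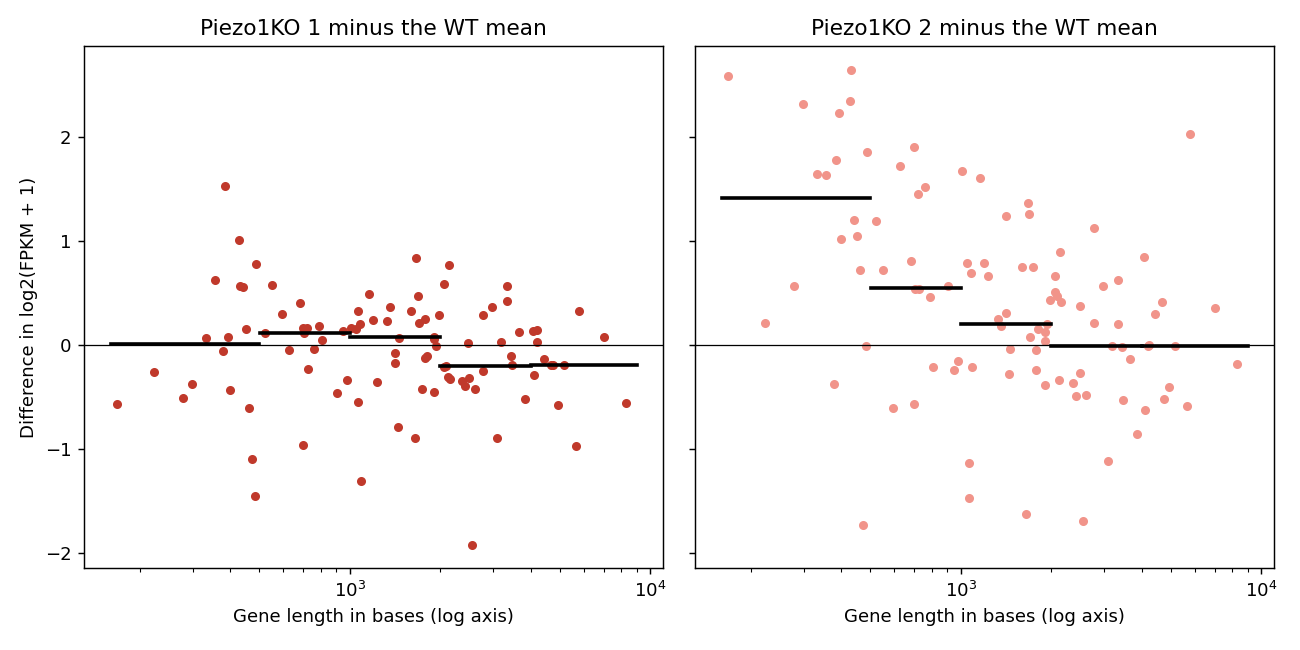
Difference in log2(FPKM + 1) from the WT mean against gene length (log axis) for the 99 lincRNAs, in Piezo1KO 1 (left) and Piezo1KO 2 (right); black bars are medians of the 5 length classes. In Piezo1KO 2 the class up to 500 bases has a median of 1.42, and in Piezo1KO 1 of 0.005. Of the 18 lincRNAs in that class, 4 had a WT mean under 1 FPKM and were bound to be higher.

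Head-to-head pairs put the lincRNAs beside their coding neighbours. Of the 99, 18 started within 2 kb of a protein-coding start on the other strand, and both genes were tested in 17 pairs. In 8 pairs both fold changes had the same sign, 6 of them positive. In 8 others the lincRNA was positive and the coding gene negative, and in 1, Gm16001 with Ogfod2, the reverse held. The coding genes had a median log2 fold change of -0.31 and the lincRNAs of 0.16, with r = 0.344 across the 17 pairs as a description. In these 17 pairs every coding gene but Tnfsf9 was longer than its lincRNA, as with Rfx7 (15302 bases, against 1191) and Mafg (5613, against 908). Across protein-coding genes the log2 fold change fell with length, as given above, and the part of length in these pairs was not tested. The coding gene had the higher mean FPKM in 16 of 17 pairs, Gm14230 with Tgif2 being the exception, and 0 of the coding genes passed.

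In the log2 fold changes of single pairs, the lincRNA is given first. Gm5468 with Basp1 had 0.60 and 1.03, Gm11110 with Tnfsf9, a costimulatory ligand gene, had 0.83 and 0.55, and Gm12319 with Eno3, a muscle enolase gene, had 1.13 and 0.55. On the negative side Gm14230 with Tgif2 had -1.01 and -0.78. 2010320M18Rik faces Pik3r2, a regulatory subunit of PI3 kinase, over the chromosome 8 stretch printed above, and the pair had 0.92 and -0.27. The lincRNA was near WT in Piezo1KO 1 (3.09 FPKM, against 3.02 and 2.34) and high in Piezo1KO 2 (10.7), and the groups of Pik3r2 overlapped. For 4930509E16Rik and Rfx7, an immune transcription factor gene, the values were 0.52 and -0.74, and for Gm7160 and Zcchc2 0.58 and -0.48. In none of these lincRNAs did the difference pass the test. Gm5468, with a WT mean of 0.805 FPKM, was bound to be higher by the filter. The pairs whose stretch is printed above all had a positive lincRNA and a negative coding gene. In these 5 the groups overlapped for every lincRNA but 2010320M18Rik, and C030037D09Rik and Gm17586 had only 0.07 and 0.05.

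Beyond head-to-head pairs, the nearest protein-coding gene was tested for 74 lincRNAs. It had the same sign as the lincRNA in 38 of them, with r = 0.187 across genes. Piezo1KO 2 and Piezo1KO 1 enter both values of each pair, so a pair shares library effects.

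**Figure D4:**
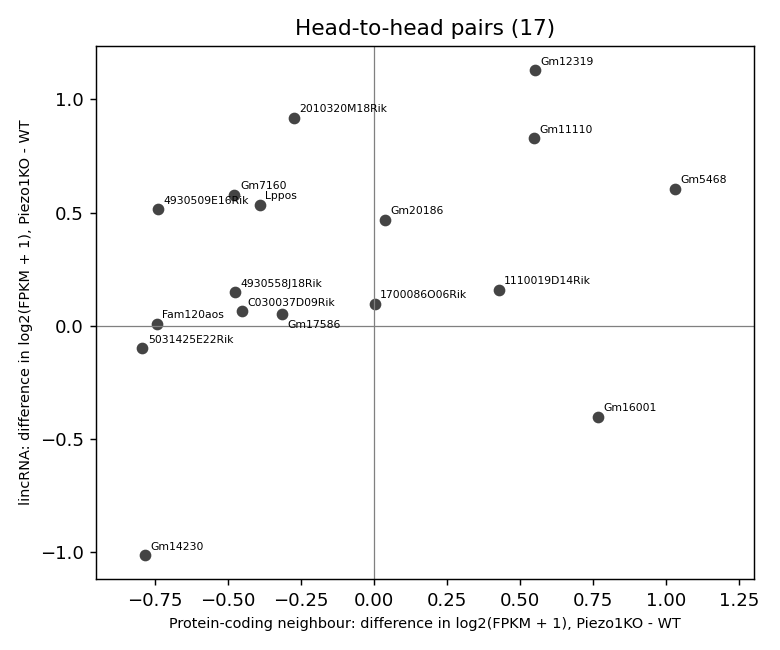
log2 fold change of the lincRNA (vertical) against that of its protein-coding neighbour (horizontal) for the 17 head-to-head pairs, on the log2(FPKM + 1) scale. The upper left holds 8 pairs, the upper right 6, the lower left 2 and the lower right 1. In all pairs but Gm11110 with Tnfsf9 the coding gene is the longer gene.

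Many values are uncertain because sequence is shared. At least 5% of exon bases were shared with another gene in 24 lincRNAs, and at least 50% of the longest transcript matched another gene's transcript at 95% identity or more in 11. Besides Gm10076 and Gm28901 these 11 held Norad, which matched Gm7292 over 51.6% of its transcript, and Gm42047, which matched Gm48362 over 64.2%. The 69 lincRNAs with neither had a median log2 fold change of 0.142, and 0 of them passed. Without overlap 21 of the 69 were higher and 13 lower, against 33.9% and 35.6% of all tested genes. Gm17275, the lincRNA that did pass, is not among the 69.

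Piezo1 itself lies on chromosome 8, and 2 lincRNAs lie within 1 Mb of it. Gm42047 is 640520 bases away and had 35.9 and 47.3 FPKM in WT, and 20.5 and 27.2 in Piezo1KO (log2 fold change -0.78, SE 0.22, limma adjusted p = 0.141). Zfp469 is 209048 bases away and had 2.06 and 2.55 FPKM in WT, and 0.770 and 0.520 in Piezo1KO (log2 fold change -1.01, SE 0.20, adjusted p = 0.112). Both were lower in both Piezo1KO libraries without overlap, as were 35.6% of all tested genes. Zfp469, with a Piezo1KO mean of 0.645 FPKM, was bound to be lower by the filter. Of 38 tested genes within that distance 0 passed, and the median was 0.024. Without overlap 10 of the 38 were lower and 15 higher, against 35.6% and 33.9% of all tested genes.

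Markers of other cells moved with the groups. Summed FPKM of 10 macrophage markers was 94.3 and 69.7 in WT, and 396 and 275 in Piezo1KO. The sum over 10 neutrophil markers was 0.985 and 1.37, against 151 and 49.3. Erythroid genes, 8 in all, summed to 389 and 244 against 5124 and 8473, and 7 B cell genes to 4.65 and 4.89 against 101 and 18.7. T cell markers summed to 2.48 and 2.42 in WT, and to 16.3 and 9.16 in Piezo1KO. Endothelial and fibroblast sums were at most 7.52 and 13.4 in any library. The part of these cells in the lincRNA differences was not tested.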

How the data were processed

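Expression was measured by RNA sequencing in 4 mouse libraries, 2 WT and 2 Piezo1KO. The authors deposited 1 FPKM value per gene and library, with gene length and biotype. The submitters' processing notes name the read cleaner fastp 0.19.7, the read counter featureCounts 1.5.0-p3 and the build mm10 (GRCm38). The aligner, annotation release and FPKM formula were not given in the sources used here. Each FPKM times gene length was a whole multiple of the smallest such product of its library, for 100% of values above 0 within 0.05 reads, which recovered whole reads. The library size so implied, over the assigned reads, was 1.26 and 1.28 in WT and 0.962 and 0.544 in Piezo1KO, so the deposited values were not scaled to assigned reads.

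The test was limma 3.58.1 (R 4.3.3) on log2(FPKM + 1) (eBayes with an intensity trend, 2 residual and 2.59 prior degrees of freedom), Piezo1KO minus WT, two-sided. The 11085 genes with a mean of at least 1 FPKM were fitted together, and p-values were adjusted by the Benjamini-Hochberg method over all of them, the threshold being 0.05. This scale understates fold changes of low genes. The test was tried on simulated data.

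Positions, exons and copies came from GENCODE M21, where all 99 lincRNAs were found and 98 had the deposited coordinates. Copies were sought with blastn. Promoter windows came from RefSeq.

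The lincRNAs, gene lists and tests were chosen with earlier results of these data known. Named were the 10 highest by mean, those that passed, the 6 higher and 6 lower with the largest difference without overlap, members of the role lists and those nearest the threshold. Others are named with the reason.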

Additional observations from a re-analysis of the deposited data

How the results depend on the processing

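No lincRNA passed as higher in the 8 alternatives that kept all libraries and used no block, and leaving out 1 library gave 0 to 39. For lower lincRNAs the count of 1 became 0 in voom, with the length trend removed, at a pseudocount of 0.1 and where low genes were kept. It was also 0 at a mean of 1 FPKM in both groups and among the 69 lincRNAs with little shared sequence (an alternative chosen after seeing the data), where Gm17275, the 1 call, is left out before the test. The count rose to 11 when FPKM were scaled to all assigned reads, and was 0 to 11 without 1 library. The title's sample numbers are not said to pair libraries, and same-numbered libraries did not deviate together (r = -0.0329 over 11085 genes). With the number as a replicate block, 1 lincRNA passed as higher and 3 as lower. The median log2 fold change was -0.392 after scaling to assigned reads, -0.0332 outside mitochondrial genes, -0.180 with the length trend removed, and 0.0232 to 0.358 without 1 library. Scaled to all assigned reads, 1810058I24Rik had -0.0858, Gm26917 -0.263, AU020206 -0.739, Tmem250-ps -0.555, Pvt1 -0.221 and Gm26617 -0.336. Scaled outside mitochondrial genes, AU020206 had -0.200, Tmem250-ps -0.0124 and Gm26617 -0.0434. With the length trend removed, AU020206 had -0.0783 and Tmem250-ps -0.0212. Without 1 library, AU020206 ranged from -0.0350 to 0.0596, Mir670hg from -0.245 to 0.212, Wincr1 from -0.0376 to 1.52 and Gm26617 from -0.133 to 0.295. The cause was not tested. Of the other values of named lincRNAs under alternatives, 236 kept direction and side of the threshold, 34 passed newly in the same direction and 6 no longer passed. With 2 libraries a group and a median of 32 to 67 reads per lincRNA, smaller differences may be missed.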
